A study of Rattus norvegicus with 144 samples.

Results

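The livers of the 18 vehicle rats of an acetaminophen time course were taken on their own, to ask which genes differ from one untreated animal to the next. Members were the rats at dose 0 in the authors' key from rat number to dose, 6 rats each at 3, 6 and 24 h, with 36 arrays of the 144 arrays and 72 rats of the series. They were male F344/N rats, an inbred strain, 10 to 12 weeks old, and were gavaged with the vehicle alone, ethyl cellulose at 0.5%, split into 2 portions. The other rats, with 18 at each dose, received acetaminophen, a painkiller toxic to the liver at high dose, at 150, 1500 or 2000 mg/kg in the same vehicle, with livers also taken at 3, 6 or 24 h. RNA came from a cubed and pulverised piece of the left lobe, so all cell types of the liver were pooled, and fewer cells of a type and less RNA per cell cannot be told apart. Each rat's RNA was hybridised on 2 arrays that read both dyes, once in Cy5 and once in Cy3, and the other channel held a pool made at each time from the RNA of 6 vehicle rats. The labels and design text give neither the feeding state nor the clock time or order in which the rats were killed.

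The liver adjusts its transcripts within hours to feeding, to insulin, glucagon and glucocorticoids, to the time of day and to traces of metal or inflammation. Animals of one inbred strain share their genome, so their livers can still differ in physiological state. Genes of glucose and amino acid handling, metallothioneins, and genes of dividing hepatocytes are among those known to move quickly in this organ.

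For each gene, every array was set against the mean of the arrays of the same time and the same dye orientation, in log2 units. A deviation of 1 means a level 2 times the geometric mean of that time. Signs assume that the deposited ratio is Cy5 over Cy3, and with the other direction every high value would be low. The spread was split into a between-rat SD and an array SD, which measures the disagreement of the 2 arrays of 1 rat. The rat test was limma's moderated F test of the rats against that array error, with Benjamini-Hochberg adjustment over all rows at 0.05. Both arrays carry RNA of the same liver, so passing says that livers differed by more than array error, and not why. Of 18259 rows tested, of which 9650 carried a gene symbol, 4989 passed, or 27.3% of rows. At an unadjusted p under 0.05 there were 6511 rows. The median between-rat SD was 0.19 over rows that passed and 0.11 over all rows. The median array SD was 0.098 over rows that passed and 0.36 over rows that did not. In 32.5% of rows the between-rat variance was estimated at 0. Large spreads were uncommon, and 172 of the rows that passed had a between-rat SD of at least 0.5.

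**Figure D1:**
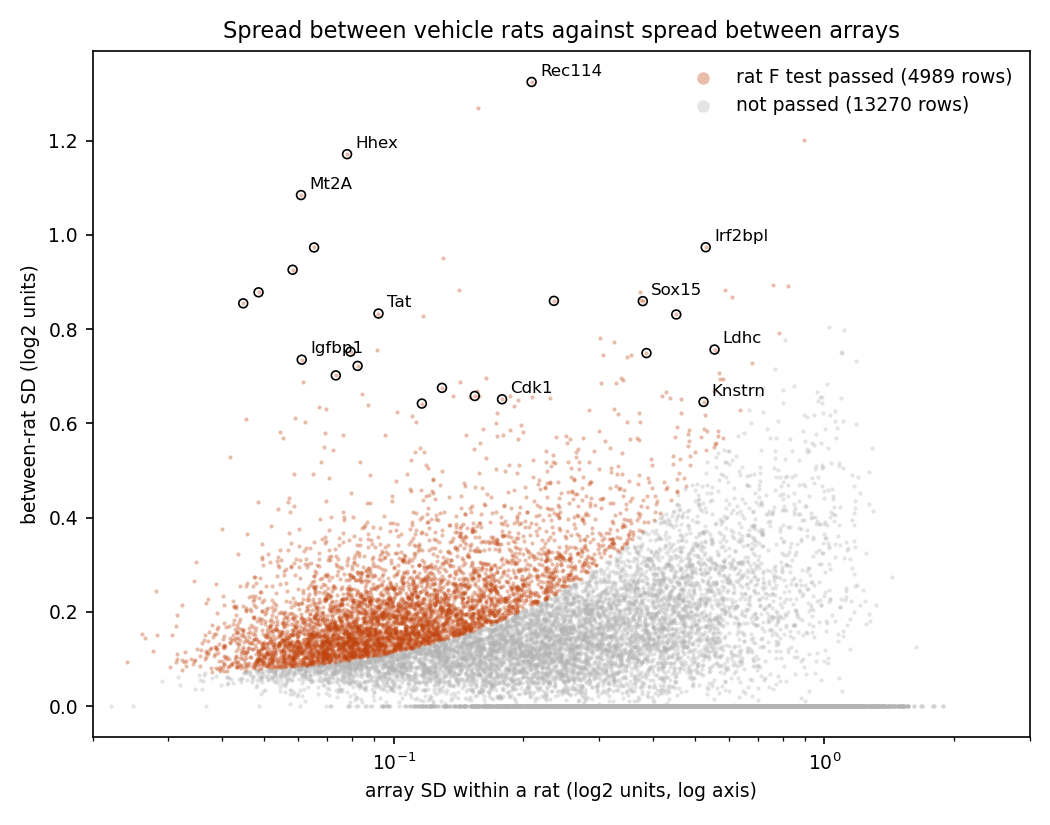
Between-rat SD (log2 units, vertical axis) against array SD within a rat (log2 units, log axis) for each of 18259 rows in 18 vehicle rats. Orange points passed the rat F test, grey points did not, and circles mark the 23 genes named for the size of their spread. The circled genes lie at between-rat SDs of 0.64 to 1.32, most at low array SD, with Irf2bpl, Sox15, Ldhc and Knstrn among those further right.

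Among the 4989 rows that passed, which the same arrays selected, rats 1009 at 3 h and 0685 at 24 h stood apart. They held the largest deviation of the 18 rats for 1169 and 886 of these rows, while each of the other 16 rats held between 36 and 521. Over all rows the root mean square deviation was larger in rats 2698 (0.44) and 5999 (0.37) than in rats 1009 and 0685 (both 0.33). With rats 1009 and 0685 left out, 3050 rows passed. Across all rows the 2 arrays of a rat correlated between -0.28 and 0.29. Across the rows that passed, which the same arrays selected, the correlation was 0.32 (rat 8897) to 0.90 (rat 1009). A set of 500 probes was blank on 11 of the vehicle arrays, both arrays of 5 rats and 1 array of rat 2698, and those probes were not used. With that set of arrays as a term, 4894 rows passed, and all 23 genes described next by the size of their spread were among them.

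Rec114 had the largest between-rat SD of any gene with a symbol, 1.32 (95% interval 0.97 to 2.06), against an array SD of 0.21. The intervals of genes chosen by size do not allow for that choice. Rec114 encodes a protein of meiotic recombination, with no role in liver known for certain. At 3 h its deviations ran from -1.86 in rat 5557 over a median of 0.42 to 1.22 in rat 6071. At 6 h they ran from -1.82 in rat 4550 over -0.33 to 2.14 in rat 9203, which is a 15.5-fold range. At 24 h they ran from -1.23 in rat 7393 over -0.41 to 1.43 in rat 1457. High and low rats occurred at every time, no single rat held more than 0.17 of the sum of squares, and the deviation had the same sign on both arrays in 17 of 18 rats.

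Hhex, a homeobox transcription factor needed for liver development and kept on in hepatocytes, followed with a between-rat SD of 1.17 (0.86 to 1.81) and an array SD of 0.078. Its adjusted p in limma's F test was 7.74e-14. At 3 h deviations ranged from -1.25 in rat 1009 over a median of -0.14 to 1.80 in rat 2698. At 6 h they ranged from -1.44 in rat 8897 over -0.36 to 1.86 in rat 3942. At 24 h they ranged from -1.40 in rat 5999 over 0.17 to 0.60 in rat 1457. The 3 and 6 h rats spread to both sides, whereas at 24 h 1 rat lay far below the other 5. The 2 arrays of a rat differed by a median of 0.055, and by 0.20 at most, in rat 8897.

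Myc, a growth-promoting transcription factor and immediate early gene, had a between-rat SD of 0.64 (0.47 to 0.999). It was highest in rat 2698 at 3 h with 0.93, in rat 3942 at 6 h with 1.205 and in rat 0685 at 24 h with 0.67. Its lowest values were -0.73 in rat 6071, -0.44 in rat 8897 and -0.71 in rat 7375. Rats 2698 and 3942 were thus the highest of their times for both Hhex and Myc.

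**Figure D2:**
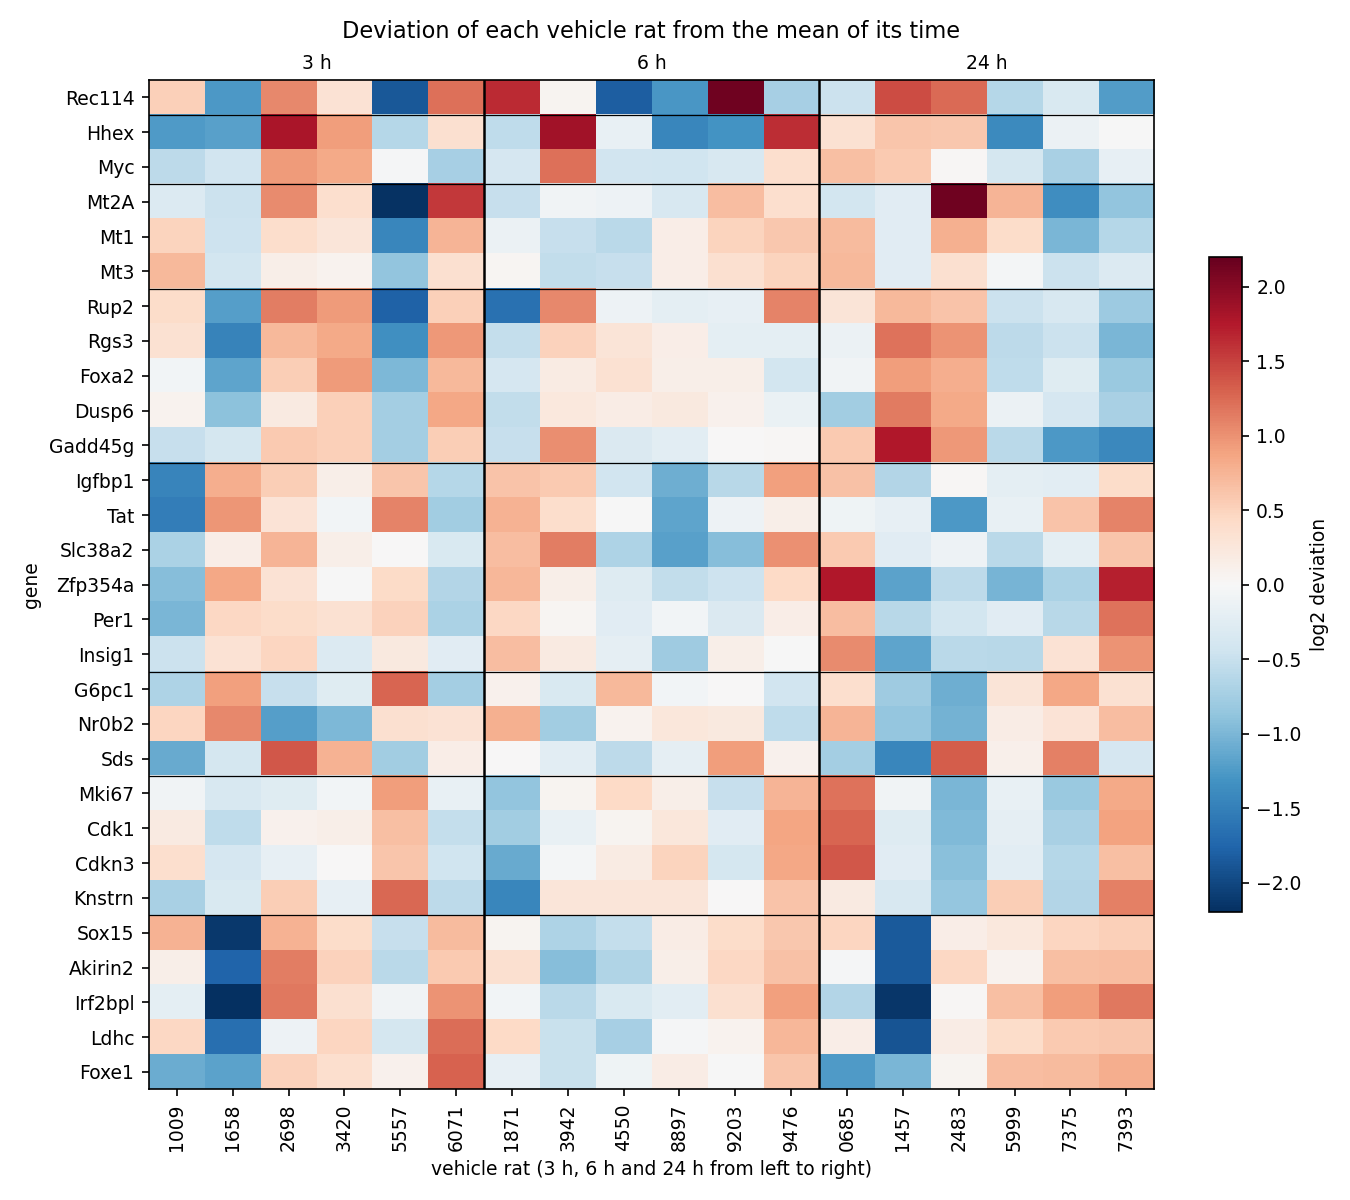
Deviation of each of 18 vehicle rats (columns, grouped by time) from the mean of its time, for 29 genes (rows) in log2 units, as the mean of 2 arrays. Red is above and blue below the mean. Horizontal lines separate the sets described in the text. The rats that are high or low differ in part between sets, but some recur. At 3 h rat 5557 is lowest for Rec114, Mt2A and Rup2, and rat 1658 is lowest for Rgs3 and Sox15.

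Metallothioneins, small proteins that bind zinc, copper and cadmium, were low or high in many of the same rats. Their promoters are known to carry repeats of the metal response element, which the factor MTF1 binds. The 250 bases before the start of Mt1 (chr19:10832976-10833225, minus strand) and Mt2A (chr19:10838709-10838958, minus strand) are shown because these 2 neighbours moved together. They are from RefSeq, build GRCr8, written 5′ to 3′, with capitals for matches on either strand to the core TGCACNC or TGCGCNC.
Mt1: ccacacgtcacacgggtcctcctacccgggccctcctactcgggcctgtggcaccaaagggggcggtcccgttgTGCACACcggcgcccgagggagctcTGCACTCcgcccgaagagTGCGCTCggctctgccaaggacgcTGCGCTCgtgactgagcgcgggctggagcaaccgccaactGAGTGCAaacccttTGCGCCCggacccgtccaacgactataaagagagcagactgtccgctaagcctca
Mt2A: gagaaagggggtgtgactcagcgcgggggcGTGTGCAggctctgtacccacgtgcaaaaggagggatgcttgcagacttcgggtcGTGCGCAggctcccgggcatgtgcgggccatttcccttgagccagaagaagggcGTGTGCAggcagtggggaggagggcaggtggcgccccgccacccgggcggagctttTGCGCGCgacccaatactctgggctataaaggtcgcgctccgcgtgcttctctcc
The Mt1 window held 6 matches, the Mt2A window 4 and the Mt3 window 3. At least 1 match occurred in 20.6% of all 33469 promoters of the table, and at least 3 in 1.17%. A match is a description of the letters and not of binding.

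Mt2A had a between-rat SD of 1.08 (0.80 to 1.68) with an array SD of 0.061. At 3 h it ranged from -2.18 in rat 5557 over a median of 0.033 to 1.55 in rat 6071, a 13.2-fold range. At 6 h the 6 rats kept within -0.51 (rat 1871) and 0.67 (rat 9203), and at 24 h they ranged from -1.36 in rat 7375 to 2.14 in rat 2483. The range was therefore wide at 3 and 24 h and narrow at 6 h. Mt1 had a between-rat SD of 0.69 (0.50 to 1.07). It was lowest in rat 5557 at 3 h with -1.43 and in rat 7375 at 24 h with -1.01, and highest at 24 h in rat 2483 with 0.79, the same rats as for Mt2A. Mt3, the form best known from brain, had a between-rat SD of 0.48 (0.35 to 0.75) and was lowest of its time in rat 5557 at 3 h and rat 7375 at 24 h, as Mt2A was. It was highest, however, in rat 1009 at 3 h with 0.72 and in rat 0685 at 24 h with 0.71, where Mt2A lay at -0.30 and -0.41, and r between Mt2A and Mt3 over the rats was 0.56. These genes are close relatives, and whether their probes share signal was not tested. The fourth measured member of the metal list, the zinc exporter Slc30a1, had a between-rat SD of 0.44 and did not pass.

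The pair Mt1 and Mt2A was among 22 pairs listed for a correlation over rats, of which 11 were measured and 3 passed after adjustment over the 11. Over the 18 vehicle rats Pearson's r was 0.81 (permutation p = 0.00024, adjusted p = 0.00264) and Spearman's rho was 0.72 (permutation p = 0.00402). It was 0.91 at 3 h, 0.61 at 6 h and 0.79 at 24 h, and 0.66 without the 2 rats farthest from the median.

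**Figure D3:**
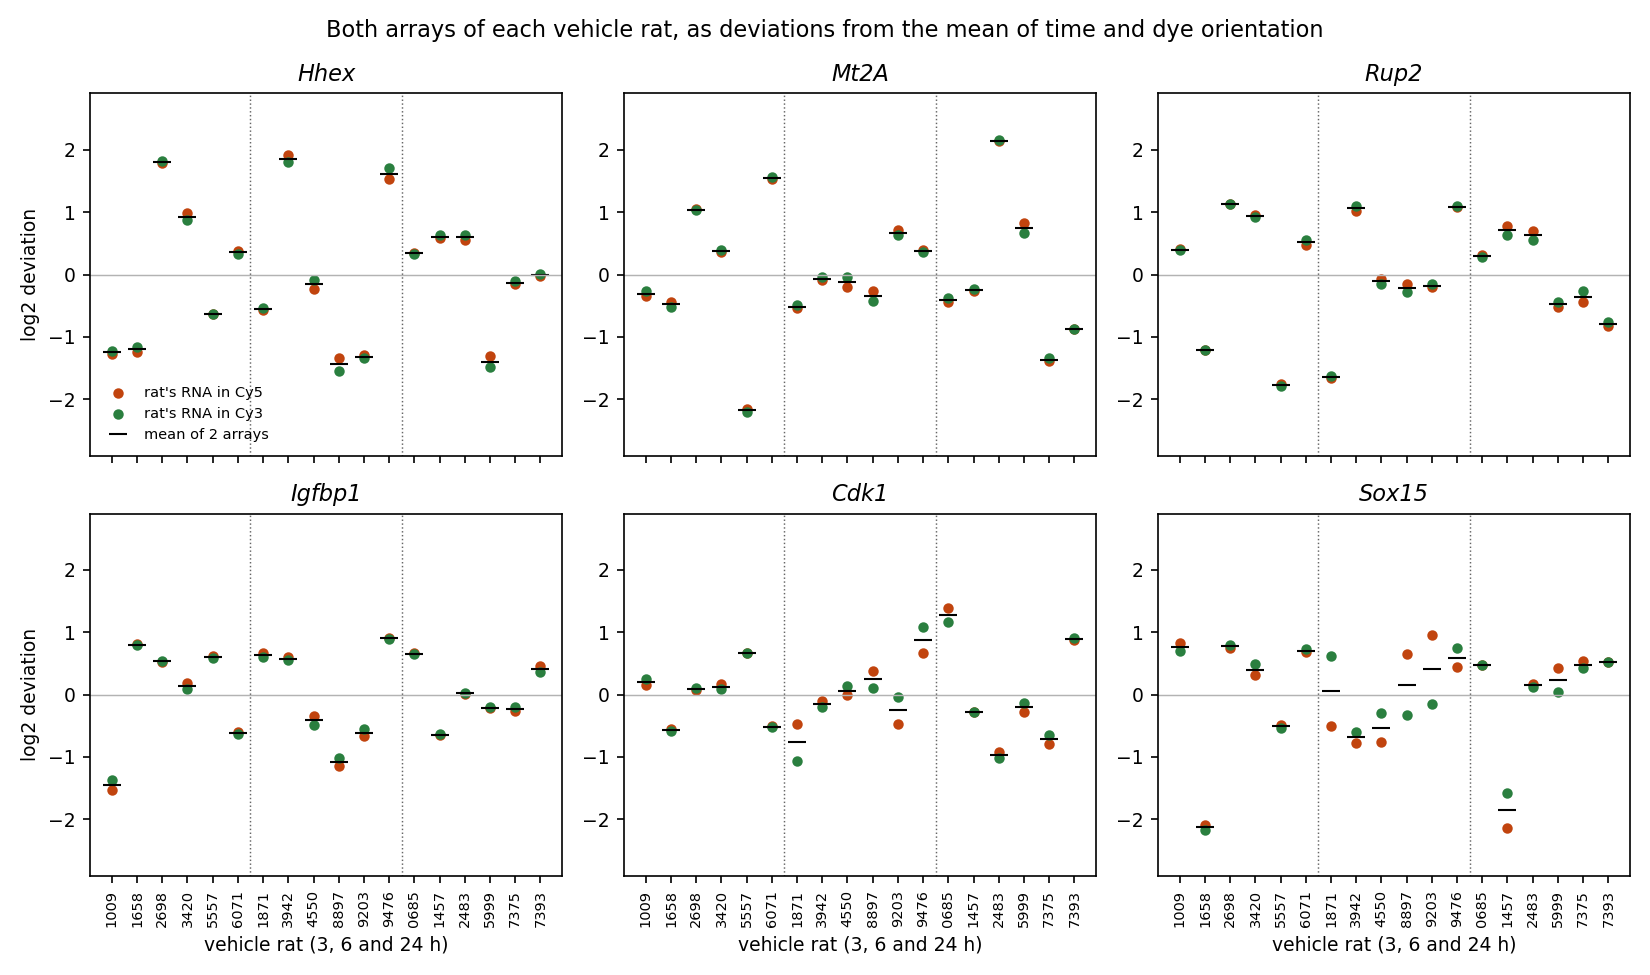
Log2 deviation (vertical axis) of both arrays of each vehicle rat (horizontal axis, 3, 6 and 24 h separated by dotted lines) for 6 genes. Orange points are arrays with the rat's RNA in Cy5, green points those with it in Cy3, and bars are the mean of both. For Hhex, Mt2A, Rup2 and Igfbp1 the points of a rat nearly coincide, while for Sox15 they part widely in 3 of the 6 h rats.

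A further set of genes was high or low in largely the same rats at 3 and 24 h. Rup2, which encodes a urinary protein, had a between-rat SD of 0.97 (0.72 to 1.51). At 3 h it ranged from -1.78 in rat 5557 over a median of 0.46 to 1.13 in rat 2698. At 6 h it ranged from -1.64 in rat 1871 over -0.14 to 1.09 in rat 9476, and at 24 h from -0.79 in rat 7393 over -0.031 to 0.71 in rat 1457. Rats 1658 and 5557 were the 2 low ones at 3 h. Rgs3, which dampens signalling from G protein-coupled receptors, had a between-rat SD of 0.85 (0.63 to 1.32) with an array SD of 0.045. It was low in rats 1658 and 5557 with -1.47 and -1.35, and high in rats 1457 and 2483 with 1.203 and 0.995. Foxa2, a forkhead factor that binds enhancers of fasting genes in liver, had a between-rat SD of 0.68 (0.49 to 1.05). It was likewise lowest in rat 1658 with -1.16 and highest in rats 3420 and 1457 with 0.94 and 0.91. Dusp6, a phosphatase that switches off ERK and is induced by it, had a between-rat SD of 0.64 (0.47 to 0.99), and its 2 probes gave 0.65 and 0.63. At 6 h the set agreed less, and rat 9476 was highest for Rup2 with 1.09 but lowest for Foxa2 with -0.40. Among the 6 h rats alone Rgs3 and Foxa2 did not pass (adjusted p = 0.0543 and 0.378 in limma's F test).

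Gadd45g, a small stress-response protein induced by growth factors and cytokines, had a between-rat SD of 0.88 (0.65 to 1.36). Its range was widest at 24 h, from -1.43 in rat 7393 over a median of -0.0089 to 1.75 in rat 1457. Over the 18 rats the rat means of Rgs3 correlated with those of Foxa2 at r = 0.97, of Dusp6 at 0.92, of Rup2 at 0.82 and of Gadd45g at 0.78. These pairs were picked from the same values and their r is a description. The differences between the 2 arrays of a rat correlated far less, between -0.47 for Rup2 with Rgs3 and 0.37 for Gadd45g with Rgs3.

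Igfbp1, Tat and Slc38a2 were lowest in the same rats at 3 and 6 h, but not at 24 h. Igfbp1, a secreted binding protein of insulin-like growth factors that insulin represses, had a between-rat SD of 0.74 (0.54 to 1.14) with an array SD of 0.061. At 3 h it ranged from -1.45 in rat 1009 over a median of 0.33 to 0.80 in rat 1658. At 6 h it ranged from -1.08 in rat 8897 over 0.081 to 0.90 in rat 9476, and at 24 h from -0.64 in rat 1457 over -0.10 to 0.65 in rat 0685. Tat, tyrosine aminotransferase, a classic glucocorticoid target, had a between-rat SD of 0.83 (0.61 to 1.29) and was lowest in the same rats 1009 and 8897, with -1.53 and -1.16. At 24 h it was lowest in rat 2483 with -1.26, where Igfbp1 was not. Slc38a2, an amino acid transporter, had a between-rat SD of 0.72 (0.53 to 1.12) and was also lowest in rats 1009 and 8897, with -0.69 and -1.20.

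Zfp354a, a zinc finger protein, had a between-rat SD of 0.93 (0.68 to 1.43) and its widest range at 24 h. There rats 0685 and 7393 lay at 1.76 and 1.71 while the other 4 rats lay between -1.18 and -0.58, with no value in between. Per1, a clock gene that glucocorticoids also induce, had a between-rat SD of 0.60 (0.44 to 0.94), with 0.55 and 0.67 from its 2 probes, and was likewise highest at 24 h in rat 7393 with 1.19. Insig1, which restrains the lipogenic factor SREBP and is its target, had a between-rat SD of 0.64 (0.47 to 0.99) and at 24 h lay at 1.04 in rat 0685 and 0.99 in rat 7393, against -1.16 in rat 1457.

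Pck1, the gluconeogenic carboxykinase, had a between-rat SD of 0.23 with an array SD of 0.34 and did not pass the rat test (adjusted p = 0.206 in limma's F test). Its rat means still correlated with those of Igfbp1, one of the listed pairs, at r = 0.73 (permutation p = 0.00067, adjusted p = 0.00369), with rho 0.63 (permutation p = 0.00502). The value was 0.56 without the 2 farthest rats (adjusted p = 0.0633), so the call rests on those rats, 1009 and 8897. The array differences of this pair ran the other way, with r = -0.70.

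G6pc1, glucose-6-phosphatase, and Nr0b2, the repressor SHP that bile acid signalling induces, shared a pattern in part, with r = 0.62 between them over the rats. G6pc1 had a between-rat SD of 0.70 (0.52 to 1.09). It was highest in rat 5557 at 3 h with 1.28, in rat 4550 at 6 h with 0.71 and in rat 7375 at 24 h with 0.85, and lowest in rat 2483 at 24 h with -1.07. Nr0b2 had a between-rat SD of 0.75 (0.55 to 1.17). It was lowest in rat 2698 at 3 h with -1.22, in rat 3942 at 6 h with -0.76 and in rat 2483 at 24 h with -1.04. Sds, serine dehydratase, which feeds amino acids into glucose production, had a between-rat SD of 0.86 (0.61 to 1.35) and an array SD of 0.24. It was high in rats 2698 and 2483 with 1.36 and 1.34 and low in rats 1009 and 1457 with -1.11 and -1.43.

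In the list of cell cycle genes 9 of 23 measured members passed, or 39.1%, against 27.3% of all rows and 32.0% of rows with a symbol. The list's median between-rat SD was 0.15 and its median array SD 0.27, with 5 members at a between-rat SD of 0. Mki67, Cdk1 and Cdkn3, which passed, were high and low in many of the same rats. The differences between the 2 arrays of a rat correlated at 0.75 for Mki67 with Cdk1 and at 0.57 for Cdk1 with Cdkn3. These genes thus also moved together in part between arrays of 1 liver. The pairs were picked from the same values, and their r over the rats, given below, is a description. Many genes of cell division are known to be held down outside mitosis through a CHR element that the DREAM complex binds, often beside CCAAT boxes that bind NF-Y. The 250 bases before the start are shown for Cdk1 (chr20:19265043-19265292, plus strand), Mki67 (chr1:199952594-199952843, minus strand) and Cdkn3 (chr15:22502136-22502385, plus strand), a set with r of 0.94 (Mki67 with Cdk1) and 0.97 (Cdk1 with Cdkn3) over the rats. They are from RefSeq, build GRCr8, 5′ to 3′, with capitals for TTTGAA (CHR) and CCAAT on either strand, which overlap at 1 place in Mki67.
Cdk1: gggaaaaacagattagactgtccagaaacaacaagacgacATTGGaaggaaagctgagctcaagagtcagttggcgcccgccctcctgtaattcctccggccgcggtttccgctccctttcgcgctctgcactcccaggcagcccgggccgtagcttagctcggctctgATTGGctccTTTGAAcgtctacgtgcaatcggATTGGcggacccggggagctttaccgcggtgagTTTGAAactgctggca
Mki67: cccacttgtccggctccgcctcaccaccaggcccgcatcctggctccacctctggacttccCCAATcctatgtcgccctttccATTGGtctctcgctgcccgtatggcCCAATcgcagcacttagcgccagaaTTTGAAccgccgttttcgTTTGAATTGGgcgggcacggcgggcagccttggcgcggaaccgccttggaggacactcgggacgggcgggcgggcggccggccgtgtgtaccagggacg
Cdkn3: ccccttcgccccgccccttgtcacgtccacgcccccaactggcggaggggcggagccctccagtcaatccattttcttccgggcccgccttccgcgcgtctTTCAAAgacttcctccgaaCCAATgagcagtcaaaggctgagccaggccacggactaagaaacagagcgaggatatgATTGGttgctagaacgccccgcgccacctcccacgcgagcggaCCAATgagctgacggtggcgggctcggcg
The Cdk1 window held 2 CHR and 3 CCAAT matches, the Mki67 window 2 and 4, and the Cdkn3 window 1 and 3. The window of Knstrn, also a gene of cell division, held 1 CHR and 0 CCAAT matches. TTTGAA occurred in 16.2% of all promoters, and at least 3 CCAAT in 2.52%.

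Mki67, the proliferation marker Ki-67, had a between-rat SD of 0.66 (0.47 to 1.03). Its 3 h range ran from -0.35 in rat 1658 over a median of -0.12 to 0.91 in rat 5557, with the other 5 rats below 0. At 6 h it ran from -0.87 in rat 1871 to 0.75 in rat 9476, and at 24 h from -0.999 in rat 2483 to 1.202 in rat 0685. Cdk1, the kinase that drives entry into mitosis, had a between-rat SD of 0.65 (0.46 to 1.02) and the same highest and lowest rats at 6 and 24 h. At 24 h it lay at 1.28 in rat 0685 and 0.89 in rat 7393, and between -0.97 and -0.21 in the other 4 rats. Cdkn3, a phosphatase of cyclin-dependent kinases, had a between-rat SD of 0.67 (0.48 to 1.04). Knstrn, a kinetochore protein, had 0.65 (0.30 to 1.10) but an array SD of 0.52, and it was highest in rat 5557 with 1.25 and lowest in rat 1871 with -1.43. Top2a, a listed gene that did not pass, had an array SD of 0.55.

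Sox15 and Irf2bpl, which encode regulators of transcription, Akirin2, a nuclear factor, Ldhc, the testis form of lactate dehydrogenase, and Foxe1, a forkhead factor of the thyroid, had between-rat SDs of 0.75 to 0.97 but array SDs of 0.38 to 0.56. Sox15 lay at -2.13 in rat 1658 at 3 h and at -1.86 in rat 1457 at 24 h, and the other 10 rats of these times lay between -0.51 and 0.77. Irf2bpl lay at -2.19 and -2.14 in the same 2 rats, Akirin2 at -1.76 and -1.85, and Ldhc at -1.66 and -1.90. Among the 6 h rats alone none of the 5 genes passed. The largest gap between the 2 arrays of a rat was 1.59 in this set, for Ldhc in rat 2698 at 3 h. The rat means of Sox15 correlated with those of Akirin2 at 0.95, and the array differences did so at 0.95 as well. For Sox15 with Irf2bpl these were 0.88 and 0.92, so in both pairs the genes moved together between arrays of 1 liver about as closely as between livers. For Sox15 with Ldhc they were 0.92 and 0.74, and Foxe1 was not compared in this way. Without rats 1658 and 1457, Sox15, Irf2bpl, Akirin2 and Ldhc no longer passed (adjusted p = 0.1045, 0.117, 0.0807 and 0.413 in limma's F test), and 3746 rows passed in all. Without rat 1457 alone Ldhc did not pass (adjusted p = 0.059).

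These genes came from a rule on size: the 16 symbols with the largest between-rat SD that passed, and the 16 largest in which no rat held over 0.25 of the sum of squares. That gave 23 genes, 9 of them under both. The SDs chose them and are given as a description. The last gene inside the first rule was Igfbp1 with 0.74 and the first outside it Slc38a2 with 0.72. The last inside the second was Myc with 0.642 and the first outside Insig1 with 0.638.

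The 18 rats at 150 mg/kg were not used by the rule and served as a second set of animals. There 5510 of 18239 rows passed the same test, or 30.2%. All 23 genes passed, with between-rat SDs of 0.48 (Knstrn) to 1.03 (Zfp354a). Rec114 had 0.95, Hhex 0.98, Mt2A 0.94, Rup2 0.96, Rgs3 0.86 and Igfbp1 0.80 in the 150 mg/kg rats, against 1.32, 1.17, 1.08, 0.97, 0.85 and 0.74 in vehicle rats. Sds and Foxe1 were smaller at 150 mg/kg, with 0.49 and 0.48 against 0.86 and 0.75, in rows where 1 blank array was dropped. Fasn was larger at 150 mg/kg, with 0.80 against 0.52. Of the 4989 rows that passed in vehicle rats 4080 passed at 150 mg/kg, which is 81.8% of the vehicle list and 74.0% of the 150 mg/kg list. Of the 100 genes with the largest vehicle SD 79 passed. Both dose groups were hybridised against the same pools, and the 2 sets of rats are separate animals.

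For each of the 23 genes the gene most correlated with it over the vehicle rats, out of 3092 that passed, was noted and then tested at 150 mg/kg. Of these pairs 19 could be tested, with 3 lost to blanks, and p-values were adjusted over the 19. All 19 correlations were above 0 and 17 passed. Of these, 14 also passed without the 2 farthest rats and 3 did not (Hhex with Foxo3, Slc38a2 with Fzd1, Knstrn with Lig1), and 1 other pair passed only then. For Rgs3 and Foxa2 r was 0.93 at 150 mg/kg (permutation p = 1e-05, the smallest 100000 permutations can give, adjusted p = 3.17e-05) with rho 0.96, and 0.93 without the 2 farthest rats. For Rup2 and Rgs3 r was 0.94 (permutation p = 1e-05) with rho 0.89 (permutation p = 2e-05). For Cdk1 and Cdkn3 r was 0.96 (permutation p = 2e-05, adjusted p = 4.75e-05) with rho 0.92, and 0.89 without the 2 farthest. For Mt2A and Mt1 r was 0.78 (permutation p = 0.00046, adjusted p = 0.000874) with rho 0.78. For Igfbp1 and Slc38a2 r was 0.74 (permutation p = 0.00061, adjusted p = 0.00105) with rho 0.75.

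G6pc1 paired with Surf6, a nucleolar protein, at r = 0.95 in vehicle rats and 0.95 at 150 mg/kg (permutation p = 1e-05) with rho 0.95. Gadd45g paired with its relative Gadd45a at 0.85 in vehicle rats and 0.74 at 150 mg/kg (permutation p = 0.00624, adjusted p = 0.0079) with rho 0.74. Zfp354a paired with Ip6k2, an inositol phosphate kinase, at 0.96 in vehicle rats and 0.85 at 150 mg/kg (permutation p = 0.00033) with rho 0.82. The pairs that did not pass were Myc with Hhex, with r = 0.23 (permutation p = 0.409), and Nr0b2 with Irs3, with r = 0.37 (permutation p = 0.153), which was the pair that passed without the 2 farthest rats (r = 0.67, adjusted p = 0.0238). The highest r at 150 mg/kg, 0.99, was that of Sox15 with C13h2orf76. In vehicle rats the array differences of that pair correlated at 0.96, those of Irf2bpl with Fbxo27 at 0.91, those of Akirin2 with Fastk at 0.84 and those of Ldhc with Cdh3 at 0.80. These 4 were the highest among the 17 pairs that passed, and they thus also moved together between arrays of 1 liver. In the other pairs that passed the value ran from -0.47 (Rup2 with Rgs3) to 0.57 (Cdk1 with Cdkn3). It was 0.51 for Slc38a2 with Fzd1 and 0.48 for Mki67 with Tcf19, so some of these also did so in part.

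**Figure D4:**
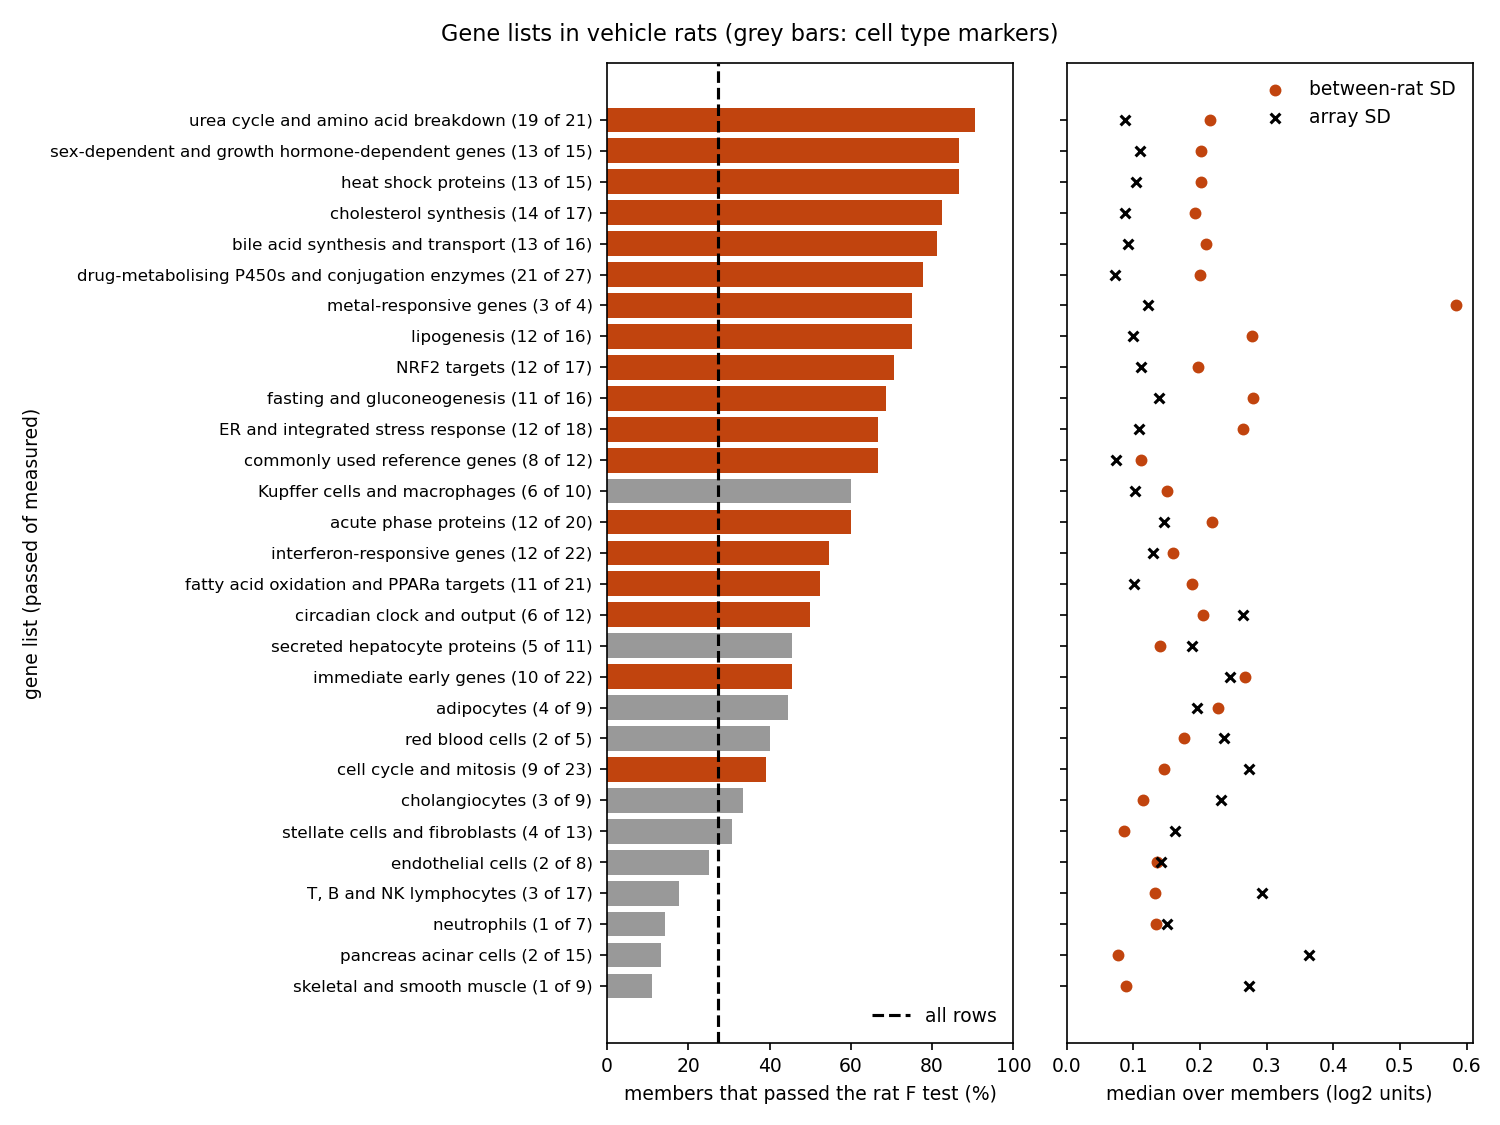
Left, the percentage of measured members of each gene list that passed the rat F test in vehicle rats, with the numbers beside the names and a dashed line at 27.3% for all rows; grey bars are cell type markers. Right, the median between-rat SD (orange) and median array SD (crosses) of each list in log2 units. The urea cycle and amino acid list has the highest percentage, 90.5%, the muscle list the lowest, 11.1%, and the metal-responsive list the largest median between-rat SD, 0.58.

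Among metabolic lists, 19 of 21 genes of the urea cycle and amino acid breakdown passed, 14 of 17 of cholesterol synthesis and 13 of 16 of bile acid synthesis and transport, against 27.3% of all rows and 32.0% of rows with a symbol. Their median between-rat SDs were 0.22, 0.19 and 0.21, against 0.11 over all rows, and their median array SDs were 0.087, 0.088 and 0.092, against 0.26. Ass1, the argininosuccinate synthase of the urea cycle, had 0.41 and was lowest in rat 1457 with -0.80. Sqle, squalene epoxidase, had 0.32 and was lowest in rat 7375 with -0.69. Cyp8b1, the sterol hydroxylase that sets the cholic acid share, had 0.31, and Abcg5, a subunit of the sterol exporter, had 0.44 with 1.12 in rat 1457.

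Of lipogenic genes 12 of 16 passed, against 27.3% of all rows, with a median between-rat SD of 0.28. Fasn, fatty acid synthase, had 0.52 (0.38 to 0.80), and rat 1457 at 24 h held 0.38 of its sum of squares, with -1.24 there against 0.82 in rat 0685 and 0.85 in rat 7393. Acly, ATP citrate lyase, had 0.41 (0.29 to 0.64). Fasn and Acly, a listed pair, correlated at r = 0.71 (permutation p = 0.00415, adjusted p = 0.0152) with rho 0.70 (permutation p = 0.00477). Without the 2 farthest rats r was 0.59 (adjusted p = 0.0958), and within times it was 0.47, 0.23 and 0.94 at 3, 6 and 24 h. Acly and Fasn were both lowest in rat 1457 and highest in rat 7393 at 24 h.

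Of drug-metabolising enzymes 21 of 27 passed, against 27.3% of all rows and 32.0% of rows with a symbol. The list's median array SD was 0.072, against 0.26 over all rows, and a low array SD makes passing easier at a given spread. Cyp1a2, a P450 that oxidises caffeine and aromatic amines, had 0.47 (0.33 to 0.73), with -1.001 in rat 1009 and -0.95 in rat 0685. Cyp3a9 had 0.37 and was lowest in rat 5557 with -0.88. Por, the reductase that passes electrons to P450s, had 0.38 and was highest in rat 2483 with 0.84. Cyp2e1, the P450 best known for activating acetaminophen, had 0.23. Among NRF2 targets, genes of the oxidant response, 12 of 17 passed, led by Osgin1 with 0.41, Gsr with 0.37 and Ephx1 with 0.37. Among sex- and growth hormone-dependent genes 13 of 15 passed, and after Rup2 came Socs2 with 0.57 and Cyp3a2 with 0.35.

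Heat shock genes passed in 13 of 15 cases, against 27.3% of all rows and 32.0% of rows with a symbol. Their median between-rat SD was 0.20 and their median array SD 0.10, and Hsp90ab1 led with 0.31. Of fasting genes 11 of 16 passed, with a median of 0.28. Of genes of the ER and integrated stress response 12 of 18 passed, of acute phase proteins 12 of 20, of interferon-responsive genes 12 of 22 and of fatty acid oxidation genes 11 of 21, with median between-rat SDs of 0.27, 0.22, 0.16 and 0.19. Of clock genes and their outputs 6 of 12 passed, among them Per2 with 0.50 and Dbp with 0.45, and the list's median array SD was 0.26. Of immediate early genes 10 of 22 passed. Egr1 had 0.39, whereas Fos had 0.17 with an array SD of 0.54 and did not pass (adjusted p = 0.524 in limma's F test). Commonly used reference genes passed in 8 of 12 cases with a median between-rat SD of 0.11. Hprt1 had 0.19, with 0.52 in rat 0685, and B2m had 0.26, with 0.58 in rat 1009 and 0.50 in rat 0685.

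Markers of other cells passed in 3 of 17 cases for lymphocytes, 1 of 7 for neutrophils and 2 of 8 for endothelium. They passed in 4 of 13 cases for stellate cells and fibroblasts, 2 of 15 for pancreas acinar cells and 1 of 9 for muscle. The median array SDs of these lists were 0.14 to 0.36. Of all rows 27.3% passed and of rows with a symbol 32.0%, so endothelium (25%) and stellate cells and fibroblasts (30.8%) lay near the share of all rows. Kupffer cell markers passed in 6 of 10 cases, with a median between-rat SD of 0.15, and Marco, a scavenger receptor, had 0.33. The neutrophil gene that passed was S100a9, a calcium-binding protein, with 0.45, and its partner S100a8 had an array SD of 0.64 and did not pass (r between them 0.074, permutation p = 0.802; rho -0.057, permutation p = 0.847). Adipocyte markers passed in 4 of 9 cases, cholangiocyte markers in 3 of 9 and red cell markers in 2 of 5. The cholangiocyte share, 33.3%, was near that of rows with a symbol. Secreted hepatocyte proteins passed in 5 of 11 cases.

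Rats 1009 and 0685 averaged -0.31 and -0.21 over secreted hepatocyte proteins, while the other 16 rats lay between -0.15 and 0.17. Over Kupffer cell markers rats 1009 and 0685 averaged -0.17 and -0.34, while the others lay between -0.13 and 0.23, so rat 1009 was not further from 0 than all of them. Over neutrophil markers the same rats averaged 0.23 and 0.18, against -0.25 to 0.22 in the others, and over lymphocyte markers 0.17 and 0.017, against -0.18 to 0.17. Rat 1009 was the highest of 18 in both of these lists by a small margin. In the other 7 marker lists both rats lay within the range of the other 16, except rat 1009 for endothelial markers, with -0.11 against -0.098 to 0.20. Fibrinogen alpha (Fga) lay at -1.07 in rat 1009 and -0.94 in rat 0685, hemopexin (Hpx) at -0.43 and -0.74, and Cpt1a, the gate of fatty acid oxidation, at -0.48 and -0.81. The lowest of the other 16 rats lay at -0.50 for Fga (rat 1871), -0.35 for Hpx (rat 4550) and -0.47 for Cpt1a (rat 1871). For Cpt1a rat 1009 was thus close to another rat. Without rats 1009 and 0685 all 23 genes named by size still passed, and 12 of the 103 genes named by any rule did not.

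Spread between rats was also compared between doses and times, on absolute deviations of rat means from their group's median over all 72 rats and 16331 rows. Between 150 mg/kg and vehicle 0 rows differed (0%, limma, with 366 at an unadjusted p under 0.05). Between 1500 mg/kg and vehicle 67 rows differed, or 0.41%, 65 with a larger (0.398%) and 2 with a smaller spread (0.0122%) at 1500 mg/kg, where 44.4% of rows passed the rat test itself. With squared deviations in place of absolute ones 523 rows differed, 509 larger and 14 smaller. Between 2000 mg/kg and vehicle 11 differed, or 0.0674%, 10 larger (0.0612%) and 1 smaller (0.00612%), and 22.6% passed the rat test. With log2 absolute deviations 22 differed, 21 larger and 1 smaller. Hhex was 1 of the 2 rows with a smaller spread at 1500 mg/kg and the only such row at 2000 mg/kg. At 3, 6 and 24 h Hhex had SDs of rat means of 0.15, 0.86 and 0.29 at 1500 mg/kg. Its lowest rat there lay at -1.71, at 6 h. At 2000 mg/kg the SDs of Hhex were 0.099, 0.26 and 0.29. In vehicle rats Hhex had SDs of 1.23, 1.43 and 0.75. Its mean absolute deviation was 0.28 at 1500 mg/kg and 0.97 in vehicle rats (difference -0.69, SE 0.16, adjusted p = 0.0283 in limma), and 0.20 at 2000 mg/kg and 0.97 in vehicle rats (difference -0.76, SE 0.16, adjusted p = 0.02). Leaving out any of rats 1009, 1658, 2698, 3420, 6071, 3942, 9476 or 5999 took the adjusted p past 0.05 for both doses, up to 0.0961 and 0.153, while the difference stayed between -0.75 and -0.59 at 1500 mg/kg and between -0.82 and -0.66 at 2000 mg/kg.

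The genes named here are those with the largest differences among the rows that passed. For Egr1, an immediate early transcription factor, the mean absolute deviation was 1.40 at 1500 mg/kg and 0.31 in vehicle rats (adjusted p = 0.0198 in limma). For Klf6, a zinc finger factor induced by injury, it was 0.89 at 1500 mg/kg, 0.90 at 2000 mg/kg and 0.17 in vehicle rats (adjusted p = 0.000146 and 0.000204). For Zfand2a, a stress-inducible zinc finger protein, it was 1.04 at 1500 mg/kg and 0.12 in vehicle rats, and for Gadd45b 0.86 at 1500 mg/kg and 0.11 in vehicle rats. At 2000 mg/kg Rnd1, Evi2a and Podxl had 0.77, 0.61 and 0.39, against 0.16, 0.13 and 0.095 in vehicle rats. At 24 h the SDs of their rat means were 2.02, 1.54 and 0.97 at this dose, and 2.08, 1.48 and 0.97 at 1500 mg/kg. Those of Egr1, Zfand2a and Gadd45b at 24 h were 1.78, 1.22 and 1.40 at 2000 mg/kg, against 0.43, 0.15 and 0.099 in vehicle rats. Genes named for a single dose thus also spread at the other high dose, and these doses were not tested against each other. For Evi2a the SD of rat means at 24 h was 1.54 at 2000 mg/kg and 0.19 in vehicle rats, and at 3 and 6 h it was 0.23 and 0.13 at 2000 mg/kg and 0.24 and 0.13 in vehicle rats. The count at 1500 mg/kg was 38 without vehicle rat 6071 and 39 without vehicle rat 7393, and no dosed rat was left out in turn.

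**Figure D5:**
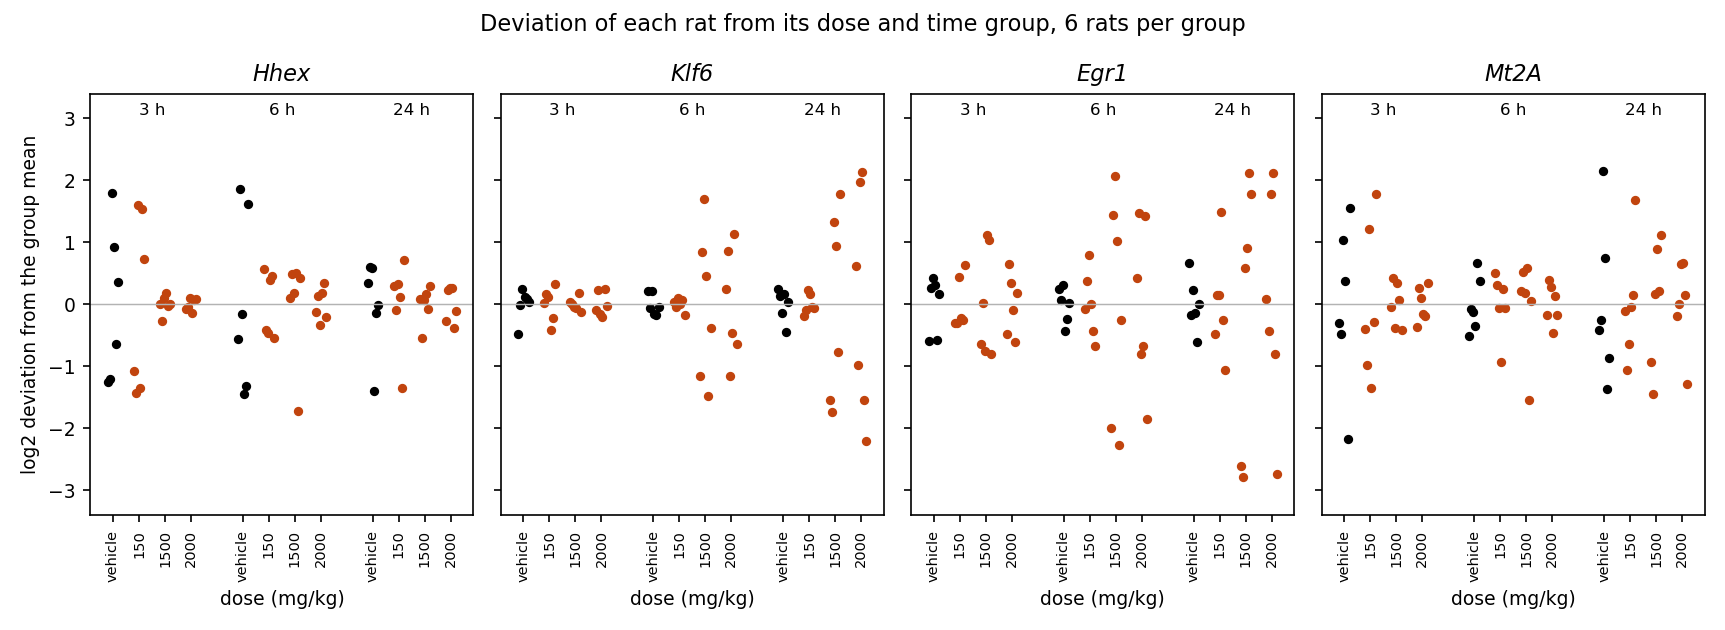
Log2 deviation of each rat from the mean of its dose and time group (vertical axis) for 4 genes, with 6 rats per group, vehicle in black and acetaminophen doses in orange. Hhex spread widely in vehicle and 150 mg/kg rats and narrowly at 1500 and 2000 mg/kg at 3 h, Klf6 and Egr1 spread most at 6 and 24 h of the high doses, and Mt2A spread widely at 3 h in vehicle and 150 mg/kg rats.

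Within single times, 1466 of 18198 rows passed the rat test at 3 h (8.06%), 61 of 18007 at 6 h (0.339%) and 2279 of 18177 at 24 h (12.5%), with 4641, 2025 and 5547 at an unadjusted p under 0.05. With 6 rats a time these tests have fewer rats, and the difference between the counts is not a test. When spread itself was compared between times, 1 row differed between 6 h and 3 h (0.00612%), and 0 between 24 h and 3 h and 0 between 24 h and 6 h (760 and 396 rows at an unadjusted p under 0.05). The counts depended on the measure of spread: with squared deviations 16 rows differed between 6 h and 3 h, all 16 smaller at 6 h, 16 between 24 h and 3 h, 15 of them smaller at 24 h, and 1 between 24 h and 6 h. The row was Itgb1, the integrin beta-1 chain, with a mean absolute deviation of 0.053 at 6 h and 0.72 at 3 h (adjusted p = 0.00824 in limma), and it did not pass when any one of the 3 h rats was left out. It did not pass the rat test over all vehicle rats, with an array SD of 0.61.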

How the data were processed

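The authors deposited 1 processed value per probe and array, taken here as a log10 ratio of red to green signal, together with a table of each rat's dose. The sources used here do not state the log base, the direction, the background correction or the dye normalization. A wrong base would scale every deviation and SD alike, and a wrong direction would turn all signs. Values were multiplied to log2 and the sign turned where the rat's RNA was in Cy3.

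Probes complete on all 36 vehicle arrays were averaged by gene symbol (21575 of 22075 probes; names from the platform annotation), and 219 rows at exactly 0 on every vehicle array were left out. Exact zeros made up 7.65% of vehicle values. The 15 rat terms were tested against array error after means of time and dye orientation (limma 3.58.1, R 4.3.3). The between-rat variance is (mean square of rats minus mean square of arrays) / 2, with a 95% interval by the Tukey-Williams method. Spread was compared by limma on absolute deviations from the group median, and correlations by 100000 two-sided permutations of rats within times. Named genes were the 16 largest by each of 2 size rules, 3 passing members per gene list, genes of listed pairs, and 4 rises and 4 falls per spread comparison. Insig1, Per1 and the other list members named follow from the list rule. Genes given in counts beyond it, such as Slc30a1, Cyp2e1 and Top2a, and the partners at 150 mg/kg were named after their values were seen. Members, lists and rules were chosen with earlier results of these data known.

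Each rat is 1 replicate with 2 arrays, and their number limits the precision. Both fits were tested on simulated data, with array errors drawn independently for each row. The rat test recovered 36% of rows simulated at a between-rat SD of 0.25, 64% at 0.5 and 88% at 1. Of its 142 calls 8 were false. The comparison of spread recovered 190 of 200 rows whose spread at 2000 mg/kg was made 6 times as large. Errors shared between genes on an array were not simulated. Python 3.11.15, pandas 2.3.3, NumPy 2.4.6 and matplotlib 3.10.9 were used. Alternatives were centring, 1 row per probe, rows with blanks, rows without zeros, a plain F test, shared blanks as a term, other measures of spread, each rat left out, and, chosen after seeing the data, pairs of rats and mostly zero probes left out. In the comparisons of spread only vehicle rats were left out.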

Additional observations from a re-analysis of the deposited data

Results flagged for a closer look

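For the 23 genes named by size, the highest and lowest of the 6 rats at each time were compared with the others, in 69 groups of 6 rats, and in 7 the gap to the nearest other rat, as a share of the group's whole range, exceeded Dixon's 95% critical value. Chance flags about 1 in 20 groups that are picked without regard to their values. These genes were picked by their spread in the same rats, so that rate does not apply and the gaps are a description. Rat 1457 at 24 h accounted for 3 of them, in genes whose array differences correlated with those of Sox15 at 0.95 (Akirin2) and 0.74 (Ldhc), so they are not separate observations, with -1.86 for Sox15, -1.85 for Akirin2 and -1.90 for Ldhc, at gaps of 0.84, 0.73 and 0.82 of the range. Rat 5557 was the highest of 6 at 3 h for Mki67 with 0.91 and a gap of 0.77. Rat 1871 was the lowest of 6 at 6 h for Knstrn with -1.43 and a gap of 0.70. Rat 3942 was the highest at 6 h for Gadd45g with 1.02 and a gap of 0.65. Rat 5999 was the lowest at 24 h for Hhex with -1.40 and a gap of 0.63.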

How the results depend on the processing

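Of the 4989 rows that varied between vehicle rats, the count was 4989 with centred arrays, 6070 with 1 row per probe, 4979 with blanks kept, 5514 without rows holding an exact zero, 5273 with a plain F test, 4894 with shared blanks as a term, 5120 without mostly zero probes, and 4246 to 5424 without each rat in turn. It was 3050 without rats 1009 and 0685, 1466, 61 and 2279 at 3, 6 and 24 h alone, and 172 when a between-rat SD of 0.5 was required. It was 0 without rats whose arrays correlated below 0.1, which leaves few rats, with 4185 at an unadjusted p under 0.05, and there all 23 genes named by size lost their call, at adjusted p of 0.0636 to 0.146 in limma's F test, while the between-rat SD of Hhex was 1.43, of Mt2A 1.19 and of Igfbp1 1.04, against 1.17, 1.08 and 0.74 over all rats. Of 103 named genes that passed, 94 kept their call without each rat in turn. Of 23 named by size, 11 lost it at 6 h alone, 2 at 3 h alone and 0 at 24 h alone. At 150 mg/kg the count was 5178 to 5577 by setting and 4786 to 5953 without each rat in turn. Spread differences at 1500 mg/kg numbered 523 with squared deviations and 38 to 71 without each vehicle rat in turn. At 2000 mg/kg they numbered 22 with log2 absolute deviations and 9 to 13 without each vehicle rat. At 150 mg/kg they were 0 in every setting. No dosed rat was left out of these comparisons, so how far the counts rest on single dosed rats was not tested. Between times, squared deviations gave 16 for 6 h minus 3 h, 16 for 24 h minus 3 h and 1 for 24 h minus 6 h. Without each rat the first ranged from 0 to 2 (0 without any one 3 h rat, 2 without rat 1871), and the others stayed at 0. Of the 11 listed pairs 3 passed, 3 with centred arrays and 2 without the 2 farthest rats (Dbp with Per2, Mt1 with Mt2A). Where a count moved, the cause was not tested unless fewer rats entered. No paired analysis was possible because rat numbers are not shared between groups. Rows with high array SD cannot show small spreads.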
